A study of Mus musculus with 36 samples.

Results

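Transcript levels of 10 genes of Toll-like receptor signalling were followed in mouse bone marrow cells that differentiated in culture with or without Taf1. The genes were chosen by symbol: the receptors Tlr1, Tlr2, Tlr3, Tlr4, Tlr6, Tlr7, Tlr9 and Tlr13, the co-receptor Cd14 and the adaptor Myd88. All 10 were among the 24411 genes of both deposited tables of TPM (a transcript level scaled for transcript length and library size). The cells were haematopoietic stem and progenitor cells (HSPCs) from control mice (genotype WT) and from conditional Taf1 KO mice. Its protein is the biggest part of TFIID, a general factor that helps place RNA polymerase II at promoters. Both genotypes were grown alike, in medium with horse serum, first with SCF and IL-3 up to day 3. Part of the culture then received GM-CSF with M-CSF and later M-CSF alone (the macrophage course). The other part received SCF, IL-3 and G-CSF and later G-CSF alone (the granulocyte course). RNA was taken at day 0 and day 3, and in each course at day 5 and day 7, which gives 12 groups of 3 libraries and 36 libraries in all.

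The libraries held 10289 to 11226 genes at 1 TPM or more, and replicates of a group correlated at 0.989 to 0.998 across genes on the log2 scale. Read depth is not given by TPM values. Mean Taf1 was lower in the knockout in all 6 comparisons with controls, from 14.1 ± 0.491 against 8.85 ± 0.303 TPM (mean ± SD, n = 3) at day 0 to 13.1 ± 0.622 against 6.11 ± 0.15 TPM in day 5 macrophage cultures. Only the day 3 difference did not pass the test (10.7 ± 0.939 against 9.34 ± 0.849 TPM, adjusted p = 0.0711). Neither the deleted part of Taf1 nor the driver of the deletion is named in the labels, so these values may include reads of exons that remain. The labels do not say whether the replicates came from separate mice, so p-values measure the spread between these libraries. In bulk RNA, fewer cells of a type and less RNA per cell cannot be told apart.

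Toll-like receptors are membrane proteins of innate immune cells that recognise molecules of microbes. Those at the cell surface bind bacterial cell wall components: TLR2 pairs with TLR1 or TLR6 to recognise lipopeptides, and TLR4 recognises lipopolysaccharide, which CD14 hands to it. TLR3, TLR7, TLR9 and TLR13 act in endosomes and sense nucleic acids, namely double-stranded RNA, single-stranded RNA, unmethylated CpG DNA and bacterial ribosomal RNA. Every Toll-like receptor except TLR3 signals through the adaptor MYD88, which recruits IRAK kinases and leads to NF-kB and IRF transcription factors. Macrophages and neutrophils are the cells in which this family is best known.

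By the GENCODE M21 annotation of mm10, Tlr1 (chr5:64924679-64933563, minus strand) and Tlr6 (chr5:64952031-64960097, minus strand) are neighbours. Tlr7 (chrX:167304929-167330558, minus strand) and Tlr13 (chrX:106143204-106160493, plus strand) lie on the X chromosome. Tlr2 is at chr3:83836272-83841767 (minus strand), Tlr3 at chr8:45395665-45411080 (minus strand), Tlr4 at chr4:66827584-66930284 (plus strand), Tlr9 at chr9:106222598-106226883 (plus strand) and Myd88 at chr9:119335934-119341411 (minus strand). Since TAF1 acts at core promoters, RefSeq promoter windows (250 bases before to 50 after a start site, GRCm38.p6) were searched on both strands for TATAAA, the TATA box, for GAGGAA, the core bound by PU.1, and for GAAANNGAAA, the interferon-stimulated response element. The windows matched 7 of the 10 genes (Tlr1, Tlr2, Tlr3, Tlr6, Tlr9, Tlr13 and Myd88) with 9 windows. Of the 9 windows, 2 held TATAAA (of Tlr6 and Myd88), 3 held GAGGAA (of Tlr1, Tlr9 and Tlr13) and 2 held GAAANNGAAA (of Tlr6 and Myd88). Of 32817 mouse windows, 13.6%, 28.3% and 3.43% held these motifs in the same order. TATAAA began at -109, -150 and -180 bases from the start site in the Tlr6 window and at -160 and -164 in that of Myd88. Whether any of these matches serves as a TATA box was not tested. The 4 stretches that follow come from windows that held a motif. They belong to Tlr1, Tlr6 and Tlr13, receptors that fell at day 3 in the knockout, and to Myd88, which did not pass there. Tlr2 also fell at day 3 and its window held none of the motifs, while Tlr9 held GAGGAA and did not pass. A link between motifs and the fall was not tested. An upstream Tlr6 window with TATAAA is not shown. Capitals mark the motifs, the strand is that of the gene, and annotated exons are left out. The Tlr1 stretch (chr5:64933564-64933808, minus strand) and the Tlr13 stretch (chrX:106143025-106143203, plus strand) lie upstream of their genes and hold GAGGAA. The Tlr6 stretch (chr5:64959167-64959416, minus strand) lies in an intron of Tlr6 before an internal start site and holds 2 overlapping GAAANNGAAA matches on the opposite strand. The Myd88 stretch (chr9:119340042-119340268, minus strand) is intronic in a longer Myd88 transcript and holds overlapping TATAAA matches on both strands and 1 GAAANNGAAA match. A match is a run of letters, and binding there was not measured.
Tlr1: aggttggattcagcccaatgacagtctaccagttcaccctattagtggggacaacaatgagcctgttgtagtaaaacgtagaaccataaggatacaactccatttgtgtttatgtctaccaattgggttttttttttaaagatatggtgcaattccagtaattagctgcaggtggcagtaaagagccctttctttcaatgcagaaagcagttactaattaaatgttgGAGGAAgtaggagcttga
Tlr6: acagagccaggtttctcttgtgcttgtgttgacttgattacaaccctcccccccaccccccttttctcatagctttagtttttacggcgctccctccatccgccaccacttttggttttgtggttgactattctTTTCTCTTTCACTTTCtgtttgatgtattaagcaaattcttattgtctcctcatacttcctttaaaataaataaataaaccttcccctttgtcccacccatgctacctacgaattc
Tlr13: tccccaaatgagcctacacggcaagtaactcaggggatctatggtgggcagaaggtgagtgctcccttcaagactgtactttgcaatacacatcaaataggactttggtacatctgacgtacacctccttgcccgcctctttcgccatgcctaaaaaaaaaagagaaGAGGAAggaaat
Myd88: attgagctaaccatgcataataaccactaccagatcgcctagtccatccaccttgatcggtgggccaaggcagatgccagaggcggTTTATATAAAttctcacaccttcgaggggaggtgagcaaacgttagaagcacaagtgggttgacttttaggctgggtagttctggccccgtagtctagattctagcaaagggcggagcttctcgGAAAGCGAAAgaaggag

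In control cells the receptors came on in 2 steps, one before and one after day 3, and genes of similar function differed in when they rose. Between day 0 and day 3, 7 of the 10 genes rose and 2 fell (Tlr3 and Tlr9), where 73.0% of 11953 tested genes changed in some direction. The median log2 difference of the 10 was 1.32, and that of all tested genes was -0.07. Differences here and below are of log2(TPM + 1), which understates those of low genes, from limma fits over all genes, with Benjamini-Hochberg adjustment and a threshold of 0.05.

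Tlr13, the receptor for bacterial ribosomal RNA, had the steepest course of the family. Its control libraries read 0.47, 0.19 and 0.11 TPM at day 0 and 26.62, 18.58 and 19.11 TPM at day 3. They then read 67.88, 79.75 and 83.49 TPM at day 5 and 148.65, 142.87 and 175.42 TPM at day 7 of the macrophage course. No library of one stage reached the range of the next. The log2 difference between day 3 and day 0 was 4.15 ± 0.15 (SE, adjusted p = 5.91e-15), the largest of the 10 genes. Tlr4, the lipopolysaccharide receptor, rose early and then stopped: 8.79, 5.03 and 4.61 TPM at day 0 were followed by 57.91, 52.89 and 57.24 TPM at day 3 (log2 difference 3.04 ± 0.18, adjusted p = 5.07e-12). At day 7 its controls held 63.1 ± 7.36 TPM in macrophage and 42.3 ± 6.64 TPM in granulocyte cultures, and neither difference from day 3 passed (0.16 ± 0.18, adjusted p = 0.431, and -0.41 ± 0.21, adjusted p = 0.104).

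Cd14 rose at both steps in controls, from 2.89 ± 0.53 TPM at day 0 to 19.6 ± 1.62 TPM at day 3 (log2 difference 2.41 ± 0.15, adjusted p = 1.88e-11). It went on to 64.5 ± 7.31 TPM in day 7 macrophage and 149 ± 6.42 TPM in day 7 granulocyte cultures. Tlr2 rose from 7.87 ± 0.798 to 30.7 ± 6.49 TPM by day 3 (1.82 ± 0.19, adjusted p = 3.12e-08). In the macrophage course it stood at 67.9 ± 3.81 TPM at day 5 and at 35.6 ± 3.59 TPM at day 7, a level that overlapped that of day 3, whereas day 7 granulocyte cultures held 121 ± 20.4 TPM. Tlr7, the single-stranded RNA receptor, rose from 0.56 ± 0.18 to 4.21 ± 0.427 TPM by day 3 (1.74 ± 0.18, adjusted p = 2.79e-08) and to 17.7 ± 4.84 TPM at day 7 of the macrophage course (1.82 ± 0.18, adjusted p = 2.56e-08). Tlr6, partner of TLR2, rose from 2.6 ± 0.407 to 5.7 ± 0.364 TPM by day 3 (0.90 ± 0.11, adjusted p = 4.54e-07).

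Tlr1, the other partner of TLR2, passed the test in the later step of the control course and not in the earlier one. It held 1.21 ± 0.592 TPM at day 0 and 1.33 ± 0.159 TPM at day 3 (adjusted p = 0.544), then 5.16 ± 0.804 TPM in day 7 macrophage and 11.6 ± 0.849 TPM in day 7 granulocyte cultures. Both rises after day 3 passed (log2 differences 1.40 ± 0.15, adjusted p = 1.24e-07, and 2.43 ± 0.16, adjusted p = 1.6e-10). Tlr3 and Tlr9 were the scarcest of the 10 genes: each reached 1 TPM in 6 of the 36 libraries, with highest values of 1.66 and 1.47 TPM. In controls Tlr9, the CpG DNA receptor, fell from 0.473 ± 0.152 to 0.147 ± 0.0513 TPM by day 3 (-0.36 ± 0.11, adjusted p = 0.00648) and rose to 1.12 ± 0.176 TPM by day 7 of the macrophage course. Tlr3, the double-stranded RNA receptor, read 0.297 ± 0.127, 0.11 ± 0.0458 and 1.17 ± 0.0737 TPM at the same 3 stages, and its early fall did not pass without control day 0 replicate 1 or 2 or control day 3 replicate 2 or 3 (adjusted p from 0.0547 to 0.129). Myd88 was between 22.42 and 90.02 TPM in all 36 libraries. Between day 3 and day 7, 7 of 10 genes rose in control macrophage cultures, where 63.4% of tested genes changed and 34.5% rose. In control granulocyte cultures 7 of the 8 tested genes rose, where 54.7% changed and 19.7% rose. None fell in either course, and the genes that did not pass were Tlr2, Tlr4 and Myd88 in macrophage and Tlr4 in granulocyte cultures. Median-of-ratios scaling, which divides each library by 1 factor (0.8192 to 1.159), moved the median of all genes in the granulocyte step from -0.134 to 0.0344 and the split from 2345 higher and 4170 lower genes to 3946 and 3322. All 7 rises held on that scale.

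**Figure D1:**
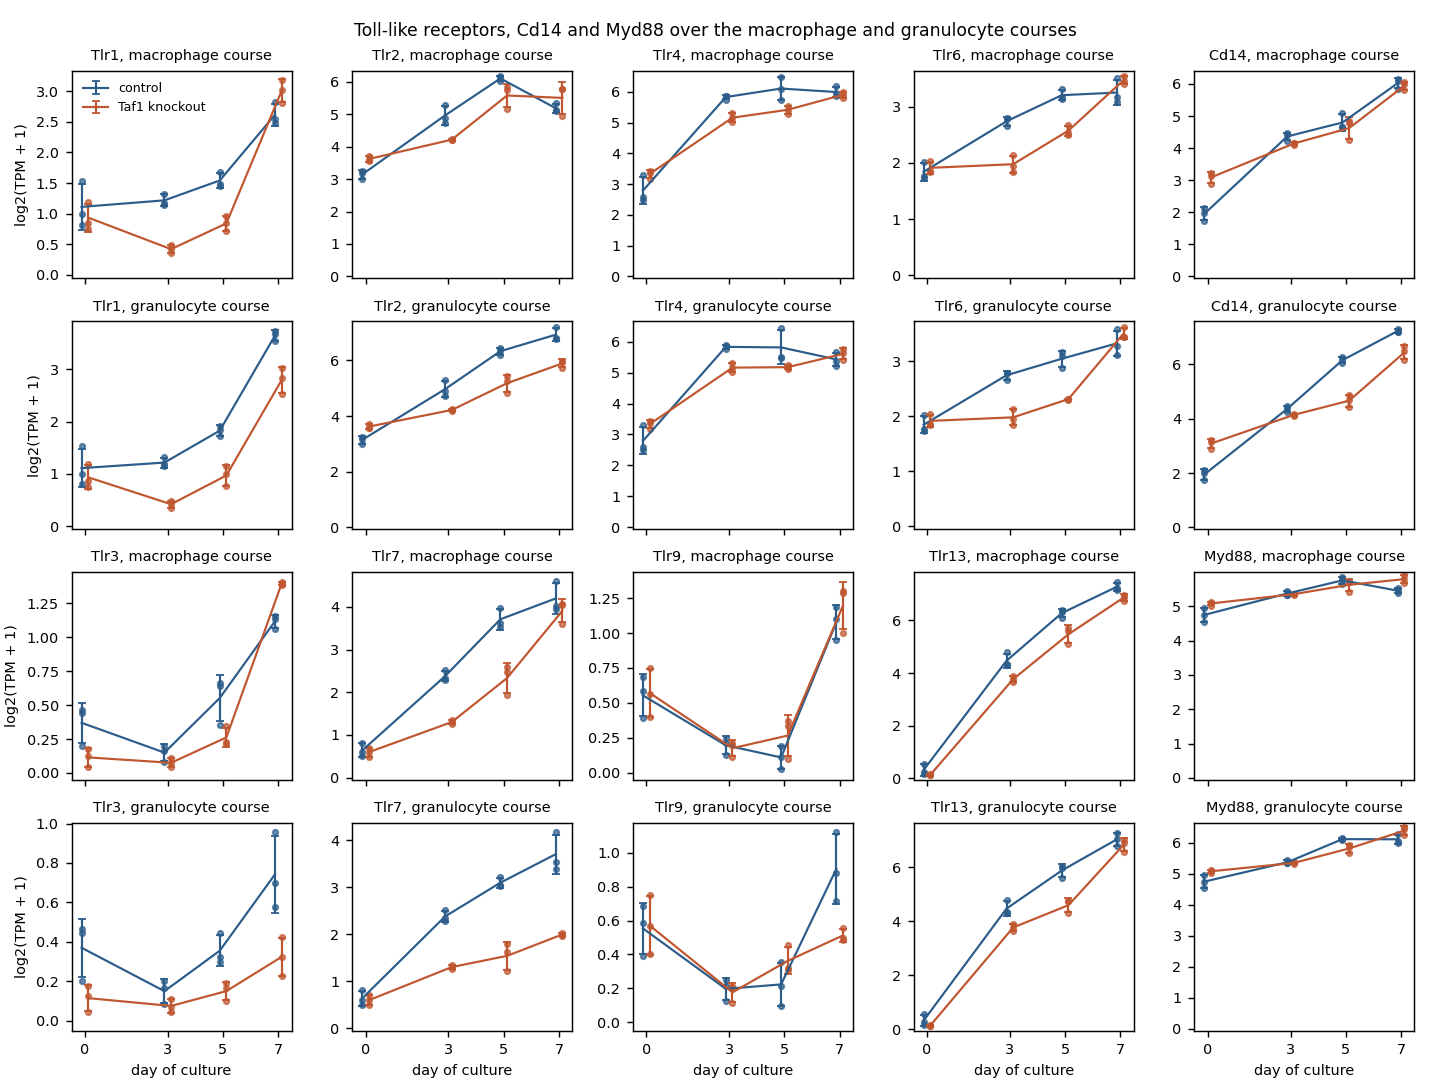
Levels of the 10 genes as log2(TPM + 1) against the day of culture, in the macrophage course (rows 1 and 3) and the granulocyte course (rows 2 and 4), with control libraries in blue and Taf1 knockout libraries in orange; days 0 and 3 are shared by both courses. Points are libraries, lines join group means, bars are ± SD (n = 3), and axes differ between panels. Knockout Tlr6 stays near 2 up to day 3 and meets the control at day 7, while knockout Tlr7 meets it only in the macrophage course.

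At day 0 Cd14 had the largest difference of the 10 genes in Taf1 knockout HSPCs. In all, 3 of 10 genes were higher and 1 was lower in the knockout, where 23.3% of tested genes differed, and the median of the 10 was 0.04 against 0.06 for all tested genes. Over all genes 1568 were higher and 1222 lower, or 1314 and 1747 after median-of-ratios scaling, on which the 4 calls held. Cd14 read 3.37, 2.32 and 2.97 TPM in control and 6.41, 8.4 and 7.78 TPM in knockout libraries. All knockout libraries lay above all controls, and the log2 difference was 1.14 ± 0.15 (adjusted p = 1.76e-05), a 2.2-fold difference on this scale. It passed under every alternative tried. Myd88 was higher at 33.29, 31.43 and 33.75 against 30.05, 25.59 and 22.42 TPM (0.33 ± 0.10, adjusted p = 0.0178), again with no overlap. The share of all tested genes without overlap is not given here for day 0. Such separation was common elsewhere, as in 33.4% of tested genes for a higher level in day 7 macrophage cultures. Tlr4 was higher (9.09 ± 0.914 against 6.14 ± 2.3 TPM, 0.54 ± 0.18, adjusted p = 0.0303), with 1 control library inside the knockout range. Tlr3 was lower at 0.0833 ± 0.0503 against 0.297 ± 0.127 TPM (-0.26 ± 0.09, adjusted p = 0.0423).

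Of these, only Cd14 kept its call whichever library was left out at day 0. Myd88 lost it without control replicate 2 or 3 or knockout replicate 1 or 3 (adjusted p from 0.0507 to 0.123), Tlr4 without control replicate 2 or 3 or knockout replicate 2 or 3 (0.0802 to 0.176), and Tlr3, which also lost it with a pseudocount of 5 TPM (0.108), without control replicate 1 or 2 or any knockout replicate (0.0548 to 0.155). Tlr2 did not overlap between the genotypes either (8.52, 8.11 and 6.98 against 10.77, 10.94 and 12.23 TPM), but its difference of 0.48 ± 0.19 did not pass (adjusted p = 0.0747). The summed level of 14 neutrophil markers ranged from 10358 to 18724 TPM in control and from 23729 to 43376 TPM in knockout libraries at day 0. Of the TPM total, S100a8 and S100a9 together made up 0.109 to 0.472% in control and 1.1 to 2.69% in knockout libraries, a large part of that difference. By gene, 2 of the 14 were higher and none lower (median 0.36). Lower by gene were 3 of 6 mast cell and basophil, 3 of 4 eosinophil, 4 of 7 erythroid and 4 of 8 conventional dendritic cell markers, with medians of -1.43, -1.97, -0.82 and -0.56. The part of these in the Cd14 difference was not tested. The sum of 15 macrophage markers did not separate the genotypes then (62.9 to 66.2 against 61.2 to 71 TPM).

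At day 3 the picture turned: 6 receptors were lower in the knockout and none of the 10 genes was higher. These were Tlr1, Tlr2, Tlr4, Tlr6, Tlr7 and Tlr13, and the median over the 10 was -0.69 against -0.01 over all tested genes. At this stage 53.2% of tested genes differed and 26.7% were lower, so a fall by itself was common. Tlr7 had the largest difference, with 4.69, 3.88 and 4.05 TPM in control and 1.4, 1.53 and 1.46 TPM in knockout libraries (-1.08 ± 0.18, adjusted p = 4.66e-05). Tlr6 read 5.93, 5.28 and 5.89 against 3.4, 2.87 and 2.59 TPM (-0.76 ± 0.11, adjusted p = 1.21e-05). For all 6 receptors every knockout library lay below every control library, which was so for 34.3% of tested genes. Tlr1 was at 1.21, 1.27 and 1.51 against 0.4, 0.34 and 0.28 TPM (-0.80 ± 0.15, adjusted p = 0.000218), and Tlr2 at 37.97, 25.53 and 28.56 against 17.99, 17.31 and 17.53 TPM (-0.75 ± 0.19, adjusted p = 0.00239). Tlr4 and Tlr13 were lower by similar amounts (-0.67 ± 0.18, adjusted p = 0.00312, and -0.70 ± 0.15, adjusted p = 0.000704). All 6 calls held under every alternative tried, but the size for low genes followed the pseudocount: with 5 TPM added, Tlr7 was at -0.51, Tlr6 at -0.43 and Tlr1 at -0.25, and with 0.1 TPM Tlr1 was at -1.70.

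Neither the adaptor nor the co-receptor passed the test at day 3. Myd88 read 39.32, 39.4 and 42.32 TPM in control and 38.87, 40.22 and 40.17 TPM in knockout libraries (-0.02 ± 0.10, adjusted p = 0.88). Cd14 read 21.01, 17.84 and 20.03 against 16.73, 17.03 and 16.24 TPM, without overlap but below the threshold of the test (-0.22 ± 0.15, adjusted p = 0.23). Tlr3 and Tlr9 were under 0.2 TPM in all 6 libraries of day 3. Markers of several cell types fell at this stage too. Of the macrophage markers 10 of the 13 tested fell, with a median of -1.69, and the sum of all 15 listed ranged from 695 to 913 TPM in controls and from 168 to 277 TPM in the knockout. Adgre1, which encodes the macrophage surface protein F4/80, was at 103 TPM in control and 22.1 TPM in knockout cells. All 7 megakaryocyte and all 4 eosinophil markers fell, with lower medians (-2.37 and -2.23), as did 4 of 7 erythroid (median -1.11, 1 higher) and 4 of 8 conventional dendritic cell markers (median -0.77, 2 higher). The summed level of neutrophil markers ranged from 76337 to 91518 TPM in controls and from 130565 to 144712 TPM in the knockout, but that sum is mostly S100a8 and S100a9. By gene 1 of 14 rose, 2 fell, Mmp9 (-0.97 ± 0.31) and Cxcr2 (-0.70 ± 0.18), and the median was -0.39. The part of these cell types in the receptors' fall was not tested.

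In the macrophage course those 6 receptors were lower at day 5 too, and Tlr3 with them, so 7 of 10 genes fell and none rose. Of all tested genes 43.0% differed and 37.9% were lower, and the median of all was -0.23 against -0.58 for the 10 genes. Tlr7 stood at 11.32, 10.48 and 14.82 TPM in control and 2.83, 4.99 and 4.56 TPM in knockout cultures (-1.38 ± 0.18, adjusted p = 6.77e-06). Tlr13 stood at 67.88, 79.75 and 83.49 against 33.09, 51.92 and 47.97 TPM (-0.80 ± 0.15, adjusted p = 0.00035). In each of the 7 genes the knockout libraries lay below all controls, as in 46.0% of tested genes. For scarce Tlr3 (0.473 ± 0.168 against 0.2 ± 0.0608 TPM) the lowest control was at 0.28 and the highest knockout library at 0.27 TPM. Cd14 (27.1 ± 5.16 against 24.1 ± 5.46 TPM), Myd88 (52.9 ± 3.75 against 48.5 ± 5.66 TPM) and Tlr9 (0.08 ± 0.06 against 0.207 ± 0.119 TPM) overlapped. Tlr2 was the least firm of the 7, with 67.9 ± 3.81 against 47.8 ± 11.5 TPM (-0.53 ± 0.19, adjusted p = 0.0299).

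Median-of-ratios scaling moved the day 5 macrophage median of all genes from -0.228 to -0.0187. On that scale 2214 genes were higher and 2382 lower, against 611 and 4532 before. Tlr2 then read -0.28 (adjusted p = 0.266), and the other 6 genes stayed lower, Tlr7 at -1.17 and Tlr4 at -0.44. Tlr2 also lost its call without control replicate 2 or 3 or knockout replicate 1 (adjusted p from 0.0676 to 0.194, with a value of -0.31 without the last), and Tlr3 without control replicate 1 or 3 (0.0579 to 0.0596). Summed macrophage markers ranged from 811 to 1028 TPM in control and from 379 to 455 TPM in knockout cultures at day 5, with 10 of 13 tested lower and 1 higher. Eosinophil (3 of 4, median -1.61) and megakaryocyte markers (4 of 7, median -0.78) had lower members too. Of the neutrophil markers 4 of 14 were lower and 3 higher (median -0.37). Among all 11953 tested genes 37.9% were lower and 611 higher, so the neutrophil count did not stand out as a fall. Of the conventional dendritic cell markers 5 of 8 were higher. The part of these cell types in the receptors' fall was not tested.

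By day 7 of the macrophage course fewer of the genes differed. Only 1 of the 10 genes was lower, Tlr13, and 3 were higher, Tlr1, Tlr3 and Myd88. Their median was 0.17 against 0.12 for all tested genes, of which 39.9% differed. Tlr13 read 148.65, 142.87 and 175.42 TPM in control and 105.65, 125.68 and 117.94 TPM in knockout cultures (-0.41 ± 0.15, adjusted p = 0.037). Myd88 read 40.6, 42.56 and 45.22 against 49.82, 53.85 and 59.41 TPM (0.34 ± 0.10, adjusted p = 0.0101). Tlr3 read 1.09, 1.2 and 1.23 against 1.63, 1.66 and 1.61 TPM (0.28 ± 0.09, adjusted p = 0.0174). These 3 genes did not overlap between the genotypes (33.4% of tested genes were higher and 17.8% lower without overlap), whereas Tlr1 did (5.16 ± 0.804 against 7.08 ± 1.05 TPM, 0.39 ± 0.15, adjusted p = 0.0488).

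Each of these 4 calls depended on the processing or on single libraries. Under median-of-ratios scaling, which moved the median of all genes from 0.117 to -0.0115 and the split from 3274 higher and 1495 lower to 2229 and 2565, the 3 higher genes did not pass (Tlr1 0.25, adjusted p = 0.191; Tlr3 0.18, adjusted p = 0.0769; Myd88 0.18, adjusted p = 0.114). Tlr7 passed as lower on that scale (-0.44, adjusted p = 0.0465), and Tlr13 was lower on both scales (-0.57, adjusted p = 0.0116 after scaling). Tlr13 lost its call without control replicate 1 or 3 or knockout replicate 1 or 3 (adjusted p from 0.0643 to 0.129) and with a pseudocount of 0.1 TPM (0.181), and Myd88 without knockout replicate 3 (0.0671). Tlr1 lost it without control replicate 1 or 2 or knockout replicate 1 or 2 (0.105 to 0.172), and Tlr3 without control replicate 1 or knockout replicate 2 (0.0534 to 0.0715) and with a pseudocount of 0.1 TPM (0.228). The summed macrophage markers overlapped at this stage, at 1756 to 2641 TPM in control and 1886 to 2082 TPM in knockout cultures. By gene 3 of 13 were higher and 2 lower, while 6 of 14 neutrophil markers were lower and 3 higher (median -0.73). Eosinophil markers were lower in 3 of 4 (median -1.53). Higher were 3 of 6 mast cell and basophil (median 1.21) and 4 of 8 conventional dendritic cell markers (0.67), with none lower. Megakaryocyte marker sums were 417 to 440 TPM in control and 1818 to 2262 TPM in knockout cultures, with 2 of 7 higher and 1 lower by gene. The part of these cell types was not tested.

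In the granulocyte course the loss was broader and Cd14 joined it. At day 5 all 8 genes that passed the filter (at least 1 TPM in at least 3 libraries of the course) were lower in the knockout, where 32.0% of tested genes differed and 22.8% were lower. Their median was -1.0 against -0.09 for all. Median-of-ratios scaling turned the split of all genes from 1095 higher and 2711 lower into 2198 and 2605, and the 8 calls held on it. The 2 genes removed by the filter did not pass at day 5 when fitted without it (Tlr3 -0.20, adjusted p = 0.0809, and Tlr9 0.14, adjusted p = 0.371). Cd14 read 65.22, 75.85 and 69.94 TPM in control and 20.62, 24.72 and 28.3 TPM in knockout cultures (-1.49 ± 0.13, adjusted p = 6.39e-08), a 2.81-fold difference. Tlr7 read 8.33, 7.21 and 7.14 against 1.32, 2.06 and 2.45 TPM (-1.56 ± 0.16, adjusted p = 4.56e-07). Tlr13 read 48.19, 62.57 and 64.46 against 18.64, 25.89 and 25.79 TPM (-1.28 ± 0.17, adjusted p = 6.07e-06). No knockout library reached the control range in any of the 8 genes, as in 31.0% of tested genes. Tlr2 (79.6 ± 6.69 against 35.7 ± 7.45 TPM), Tlr1 (2.56 ± 0.25 against 0.973 ± 0.265 TPM) and Tlr6 (7.27 ± 0.823 against 3.96 ± 0.0351 TPM) fell with log2 differences of -1.15 ± 0.15, -0.86 ± 0.16 and -0.73 ± 0.12.

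The 2 smallest falls at this stage, of Tlr4 and Myd88, rested on fewer libraries. Tlr4 was at 86.27, 43.79 and 44.52 against 37.33, 33.88 and 34.31 TPM (-0.64 ± 0.21, adjusted p = 0.0232). One control library stood far above the other two, namely control replicate 1. Without it the difference was -0.32 and did not pass (adjusted p = 0.181), nor did it pass without knockout replicate 2 or 3 (adjusted p of at least 0.0615). Myd88 (68.3 ± 1.29 against 55.4 ± 5.24 TPM, -0.30 ± 0.10, adjusted p = 0.0262) lost its call without control replicate 1 or 2 or knockout replicate 1 (0.0576 to 0.138). Macrophage markers were also lower here, 11 of 13 with a median of -1.48 and a sum of 681 to 974 TPM in control and 219 to 390 TPM in knockout cultures. Msr1, a scavenger receptor of macrophages, was at 49.5 TPM in control and 4.8 TPM in knockout cultures. Neutrophil marker sums, again mostly S100a8 and S100a9, were 60531 to 159060 TPM in control and 185152 to 227022 TPM in knockout cultures, while by gene 1 of 14 was higher and 4 were lower (median -0.23). Eosinophil (3 of 4 lower, median -1.38) and megakaryocyte markers (4 of 7 lower, median -0.94) were lower, and 3 of 6 mast cell and basophil markers were higher (1 lower, median 0.83). The part of these cell types in the fall was not tested.

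At day 7 of the granulocyte course the receptors parted. Tlr1, Tlr2, Tlr7 and Cd14 were still lower in the knockout, Myd88 was higher, and Tlr4, Tlr6 and Tlr13 did not pass, with 8 genes tested and 44.1% of all tested genes different. The median of the 8 was -0.50 against 0.17 for all. Tlr7 showed the largest knockout difference of any of the 10 genes at any stage, with 9.47, 10.63 and 17.07 TPM in control and 2.91, 2.96 and 3.08 TPM in knockout cultures (-1.71 ± 0.16, adjusted p = 1.24e-07, 3.27-fold). Tlr2 read 107.63, 110.97 and 144.48 against 52.05, 62.66 and 60.67 TPM (-1.03 ± 0.15, adjusted p = 1.85e-05). Cd14 read 145.22, 156.45 and 145.45 against 70.82, 88.11 and 100.99 TPM (-0.79 ± 0.13, adjusted p = 8.5e-05), and Tlr1 11.6 ± 0.849 against 6.01 ± 1.2 TPM (-0.85 ± 0.16, adjusted p = 0.000288). None of the 4 overlapped, as in 15.7% of tested genes for a lower level, and all 4 held under every alternative.

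The receptors that did not pass at day 7 overlapped between the genotypes in granulocyte cultures. Tlr6 was at 7.67, 8.72 and 10.92 TPM in control and 9.9, 11.33 and 9.9 TPM in knockout cultures (0.18 ± 0.12, adjusted p = 0.233). Tlr13 was at 132 ± 21.4 against 114 ± 18.3 TPM (-0.21 ± 0.17, adjusted p = 0.317) and Tlr4 at 42.3 ± 6.64 against 47.9 ± 5.91 TPM (0.18 ± 0.21, adjusted p = 0.512). Tlr6 and Tlr4 were near 0 on the median-of-ratios scale (-0.01 and -0.03), which moved the median of all genes from 0.165 to -0.0132 and the split from 3825 higher and 1425 lower to 2502 and 2850. Myd88, at 83.1 ± 8.02 against 68.3 ± 7.22 TPM (0.28 ± 0.10, adjusted p = 0.0287), did not pass on it (0.07, adjusted p = 0.452), nor without control replicate 1 or 2 or knockout replicate 2 or 3 (0.0872 to 0.135). Tlr3 and Tlr9 did not pass the filter in this course. Fitted with no filter, both were lower at day 7 (Tlr3 -0.42, adjusted p = 0.00072; Tlr9 -0.39, adjusted p = 0.00508), from 0.683 ± 0.232 to 0.253 ± 0.085 and from 0.887 ± 0.273 to 0.427 ± 0.0379 TPM. Macrophage markers were lower in 10 of 13 and higher in 2, with sums of 1168 to 2067 TPM in control and 877 to 1000 TPM in knockout cultures. Neutrophil markers were lower in 6 of 14 and higher in 3 (median -0.93), and eosinophil markers lower in 3 of 4 (median -2.05). Higher were 5 of 7 progenitor (median 1.46), 4 of 6 mast cell and basophil (1.66), 5 of 7 megakaryocyte (1.01) and 4 of 8 conventional dendritic cell markers (0.40), with none lower. Their part in the falls of Tlr1, Tlr2, Tlr7 and Cd14 was not tested.

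**Figure D2:**
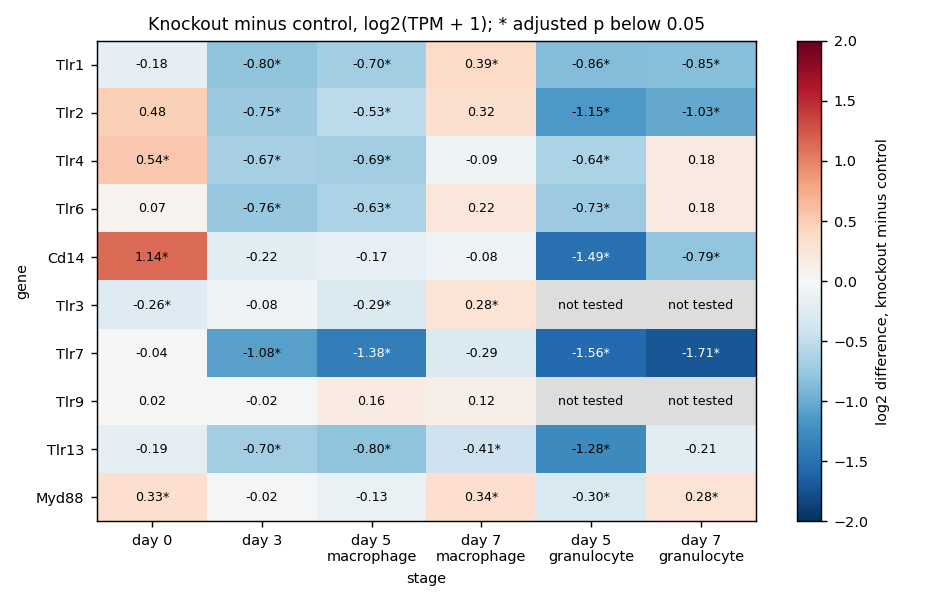
Knockout minus control difference in log2(TPM + 1) for each gene (rows) at each stage (columns), coloured from -2 (blue) to 2 (red), with * for an adjusted p below 0.05 in the limma fit and grey for genes that the filter on low values removed. Blue runs through Tlr1, Tlr2, Tlr4, Tlr6, Tlr7 and Tlr13 at day 3 and day 5, and Cd14 passes from 1.14 at day 0 to -1.49 in day 5 granulocyte cultures.

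The test of the genotype difference compares the change over each step between the genotypes, not the level at its end. Up to day 3 the rise was smaller in the knockout, or the fall larger, for 6 of 10 genes, and larger for none, where 32.3% of tested genes differed and 17.3% had a negative term. The terms were -1.36 ± 0.21 for Cd14 (adjusted p = 0.000135), -1.22 ± 0.27 for Tlr2 (0.00189), -1.21 ± 0.25 for Tlr4 (0.00116), -1.04 ± 0.25 for Tlr7 (0.00424), -0.83 ± 0.16 for Tlr6 (0.000659) and -0.62 ± 0.22 for Tlr1 (0.0337). The Cd14 term includes a higher knockout level at day 0 (7.53 ± 1.02 against 2.89 ± 0.53 TPM), and the Cd14 difference at day 3 did not pass. Knockout means were also above control means at day 0 for Tlr2 (11.3 against 7.87 TPM) and Tlr4 (9.09 against 6.14 TPM). Knockout Tlr6 did not pass, from 2.77 ± 0.275 to 2.95 ± 0.411 TPM (0.06 ± 0.11, adjusted p = 0.642), while control Tlr6 rose. Within the knockout, 6 of 10 genes rose and 2 fell by day 3 (58.8% of tested genes changed, 2727 up and 4297 down, or 3573 and 3412 after median-of-ratios scaling), with Tlr13 from 0.0967 ± 0.0208 to 12.7 ± 1.09 TPM (3.64 ± 0.15) and Tlr1 from 0.93 ± 0.317 to 0.34 ± 0.06 TPM (-0.51 ± 0.15, adjusted p = 0.00746). The difference between the genotypes in the steep rise of Tlr13 did not pass (-0.51 ± 0.22, adjusted p = 0.0748).

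These terms share the day 0 and day 3 libraries with the comparisons above. Of the 6 genes, Tlr1 alone lost its term when 1 library was left out (control day 0 replicate 2 or 3, knockout day 0 replicate 2, control day 3 replicate 3, or knockout day 3 replicate 2 or 3, adjusted p from 0.0576 to 0.107), and it did not pass with a pseudocount of 5 TPM (-0.18, adjusted p = 0.149). The fall of knockout Tlr1 itself did not pass without knockout day 0 replicate 2 (0.0517), nor the rise of knockout Myd88 without knockout day 0 replicate 2 or knockout day 3 replicate 2 or 3 (0.056 to 0.0737) or with structural RNAs and histones taken out of the total (0.39), nor that of knockout Tlr7 with a pseudocount of 5 TPM (0.118).

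From day 3 to day 7 the order reversed in macrophage cultures: all 10 genes rose in the knockout (62.0% of tested genes changed and 36.3% rose), and 5 of 10 rose by more than in controls (35.2% differed and 21.8% had a positive term). These were Tlr1 (term 1.19 ± 0.22, adjusted p = 0.00034), Tlr2 (1.07 ± 0.27, 0.00444), Tlr6 (0.99 ± 0.16, 0.000108), Tlr7 (0.79 ± 0.25, 0.0205) and Tlr3 (0.35 ± 0.13, 0.0343). Knockout Tlr1 went from 0.34 ± 0.06 to 7.08 ± 1.05 TPM, and knockout Tlr7 from 1.46 ± 0.0651 to 14.2 ± 2.69 TPM. In granulocyte cultures 7 of 8 genes rose in the knockout (55.8% of tested genes changed and 27.1% rose), and the terms had both signs, 2 up and 2 down (33.8% differed). Tlr6 (0.95 ± 0.17, adjusted p = 0.000302) and Tlr4 (0.85 ± 0.29, 0.0311) gained on controls, while Cd14 (-0.57 ± 0.19, 0.0226) and Tlr7 (-0.63 ± 0.23, 0.0378) fell further behind. Knockout Tlr7 rose from 1.46 ± 0.0651 only to 2.98 ± 0.0874 TPM there.

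Several of these terms were lost when 1 library was left out or the pseudocount was changed. In the macrophage course Tlr7 lost its term without control day 3 replicate 1, control day 7 replicate 1 or 2, or knockout day 7 replicate 2 or 3 (adjusted p from 0.0503 to 0.0626), and with a pseudocount of 5 TPM it was 0.27 in place of 0.79 (adjusted p = 0.232). Tlr3 lost it without control day 3 replicate 1 or 3, knockout day 3 replicate 2 or 3, control day 7 replicate 1 or 2, or knockout day 7 replicate 2 or 3 (0.0536 to 0.0753), with median-of-ratios scaling (0.0714) and with a pseudocount of 0.1 TPM (0.0981). In the granulocyte course Tlr4 lost it without control day 3 replicate 1 or 3, knockout day 3 replicate 1 or 3, control day 7 replicate 1 or 2, or knockout day 7 replicate 2 or 3 (0.0542 to 0.0796). Tlr7 lost it without control day 3 replicate 2 or 3, control day 7 replicate 3, or any knockout library of day 3 or day 7 (0.0526 to 0.107). Its value was -0.39 without control day 7 replicate 3, and it did not pass with a pseudocount of 0.1 TPM (0.227). Cd14 lost it without control day 3 replicate 2, control day 7 replicate 2 or knockout day 7 replicate 1 (0.0527 to 0.0614). The number of genes past the threshold with 1 library left out was 3 to 6 in the macrophage and 2 to 4 in the granulocyte course. Over all genes, median-of-ratios scaling turned the split of positive and negative terms from 2611 and 1601 to 2422 and 2610 in the macrophage course, and from 2657 and 1362 to 2490 and 2698 in the granulocyte course.

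At day 7 some of the genes differed between the 2 courses, in numbers near the share of all tested genes in each genotype. Tlr3, Cd14 and Myd88 passed in the same direction in both genotypes, and the genotype term, given below, passed for 4 of 10 genes. In controls Tlr1, Tlr2, Cd14 and Myd88 were lower in macrophage than in granulocyte cultures and Tlr3 and Tlr4 were higher, where 46.7% of 11269 tested genes differed (4095 higher and 1162 lower, or 2474 and 2002 after median-of-ratios scaling, which moved their median from 0.209 to 0.0428). Tlr2 had the widest gap, at 34.02, 33 and 39.67 TPM in macrophage and 107.63, 110.97 and 144.48 TPM in granulocyte cultures (-1.73 ± 0.21, adjusted p = 0.000177). Cd14 was at 69.62, 67.7 and 56.11 against 145.22, 156.45 and 145.45 TPM (-1.20 ± 0.13, adjusted p = 0.000102). For both genes all macrophage libraries lay below all granulocyte libraries, as in 14.4% of tested genes. Tlr1 differed by -1.03 ± 0.14 (adjusted p = 0.000396), Myd88 by -0.66 ± 0.10 (0.000728), Tlr4 by 0.57 ± 0.13 (0.00514) and Tlr3 by 0.38 ± 0.11 (0.0167). The Tlr3 call was lost without control macrophage replicate 3 or control granulocyte replicate 1 or 2 (0.0527 to 0.0798).

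In knockout cultures at day 7, 5 of 10 genes differed between the courses (53.0% of tested genes, 4227 higher and 1740 lower, or 3433 and 2534 after that scaling), with Tlr3, Tlr7 and Tlr9 higher and Cd14 and Myd88 lower in macrophage cultures. Tlr7 read 11.05, 15.57 and 15.85 TPM in macrophage and 2.91, 2.96 and 3.08 TPM in granulocyte cultures (1.91 ± 0.22, adjusted p = 7e-05). Tlr1 did not pass in the knockout (7.08 ± 1.05 against 6.01 ± 1.2 TPM, 0.21 ± 0.14, adjusted p = 0.238), nor did Tlr2 (46 ± 14 against 58.5 ± 5.64 TPM, -0.38 ± 0.21, adjusted p = 0.136). Same-numbered libraries of the 2 courses deviated together at day 7, with correlations of at least 0.267 in controls and 0.323 in the knockout. Libraries of different number reached 0.433 and 0.346, and 2 of 6 and 4 of 6 libraries correlated best with their own number. A pairing by number is therefore not settled. With the replicate number as a block 3 more genes passed. They were Tlr7 in controls (0.49, adjusted p = 0.0174), and Tlr2 (-0.38, 0.047) and Tlr4 (0.30, 0.0483) in the knockout.

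The course gap itself differed between the genotypes for 4 of the 10 genes, where 3.26% of all tested genes differed and 1.65% had a positive term. The terms were 1.42 ± 0.31 for Tlr7 (adjusted p = 0.0337), 1.35 ± 0.29 for Tlr2 (0.0321), 1.24 ± 0.20 for Tlr1 (0.0104) and 0.70 ± 0.16 for Tlr3 (0.0368), all relatively higher in knockout macrophage cultures. With the block Cd14 passed as well (0.71, adjusted p = 0.0434, against 0.0614 without it). Tlr1 held its term under every alternative. Tlr2 lost it without any of the 12 day 7 libraries other than control macrophage replicate 3, knockout macrophage replicate 1 and knockout granulocyte replicate 1 (adjusted p from 0.0559 to 0.097). Tlr3 lost it without any other than control macrophage replicate 3, control granulocyte replicate 1 and knockout granulocyte replicate 1 (0.0555 to 0.105). Tlr7 lost it without control macrophage replicate 1 or 2, control granulocyte replicate 2, or replicate 2 or 3 of either knockout culture (0.0682 to 0.103) or with a pseudocount of 5 TPM (0.86, adjusted p = 0.0848), so that 1 to 5 genes passed with 1 library left out. Macrophage marker sums at day 7 overlapped between the genotypes in macrophage cultures and not in granulocyte cultures, and their part in these terms was not tested.

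**Figure D3:**
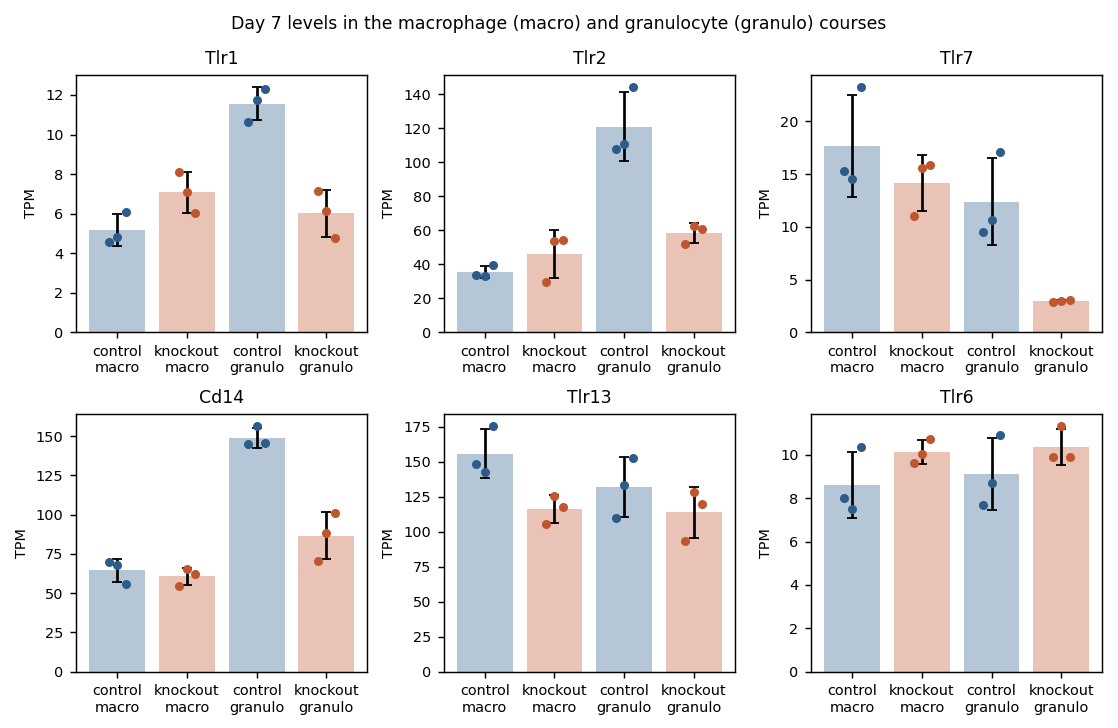
Day 7 levels in TPM (axes from 0, differing between panels) of Tlr1, Tlr2, Tlr7, Cd14, Tlr13 and Tlr6 in control (blue) and knockout (orange) macrophage and granulocyte cultures. Bars are means, error bars ± SD and points the 3 libraries; Tlr7 is low only in knockout granulocyte cultures (2.91 to 3.08 TPM), and Tlr2 is highest in control granulocyte cultures (107.63 to 144.48 TPM).

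Set in order over the 12 groups, most genes peaked at day 7. Tlr1 was highest in control day 7 granulocyte cultures (11.6 TPM), above all others, followed by knockout macrophage (7.08), knockout granulocyte (6.01) and control macrophage (5.16) cultures of day 7, whose libraries overlapped from one to the next. It was lowest at day 3 of the knockout (0.34 TPM). Tlr6 ranged from 2.32 to 11.33 TPM and Tlr4 from 4.61 to 88.52 TPM. Per transcript length, Tlr13 and Cd14 reached the highest levels of the 10 genes (175.42 and 156.45 TPM), and Tlr2 reached 144.48 TPM. Over the 12 group means of log2(TPM + 1), Tlr13 correlated with Tlr4 at 0.919, with Cd14 at 0.913 and with Tlr6 at 0.903, while Tlr9 and Tlr4 correlated at 0.007. These are descriptions over 12 means that share a time course. Among 9998 other genes, the closest to Tlr13 was Cap1 (Pearson r 0.996), an actin regulator, with Gpnmb (0.993) and Rin2 (0.990) next. Cast (0.991), the calpain inhibitor, was closest to Tlr4, Ppap2b (0.990) to Tlr6, Gltp (0.976) to Tlr7 and Abca1 (0.976), the cholesterol exporter, to Tlr1. Tns3 (0.969) was closest to Tlr3, Lpcat2 (0.963) to Myd88, Susd6 (0.961) to Cd14, Naip2 (0.949) to Tlr2 and Sesn1 (0.939) to Tlr9. The second closest to Myd88 was Spi1 (0.951), which encodes PU.1, and the second closest to Tlr3 was Cd180 (0.963), itself a Toll-like receptor homologue.

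Some levels are less certain for reasons of sequence. Of the 50-base words in Tlr1 transcripts 15.4% also occur in another gene, most of them in Tlr6 (454 of 3332), and 12.3% of those of Tlr6 recur, so reads could be split between these 2 genes. Tlr3 shares 5.3% with the antisense gene Gm45542, and Myd88 shares 7.42% with Acaa1a, which overlaps it on the opposite strand. The kit is stranded, but no source used here says whether strand entered the counting. Tlr2, Tlr7, Tlr9, Tlr13 and Cd14 share no such word with another gene.

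Among the other Toll-like receptors, Tlr8, the second sensor of single-stranded RNA, followed Tlr7 in part. It was lower in the knockout at day 3 (7.95 against 15.1 TPM, -0.85 ± 0.12, adjusted p = 4.78e-06) and in day 5 granulocyte cultures (15.3 against 20.7 TPM, -0.41 ± 0.14, adjusted p = 0.0259). In day 7 macrophage cultures it was higher (39.4 against 26.6 TPM, 0.55 ± 0.12, adjusted p = 0.000938), and in day 7 granulocyte cultures, where the Tlr7 difference was largest, it did not pass (0.06 ± 0.14, adjusted p = 0.759). Tlr5, the flagellin receptor, was scarce and lower in the knockout at day 3 (0.1 against 0.433 TPM, adjusted p = 0.0037).

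Receptor partners and chaperones fell in the knockout in 3 of 8 tested genes at day 3 (1 rose), 4 of 8 in day 5 macrophage and 5 of 8 in day 5 granulocyte cultures, with medians of -0.31, -0.58 and -0.58. Of all tested genes 26.7%, 37.9% and 22.8% were lower at these stages, so the counts at day 3 and in day 5 macrophage cultures lay near the background. Ly86, which encodes MD-1, the partner of CD180, was at 17.7 TPM in control and 3.33 TPM in knockout cells at day 3 (-2.14 ± 0.29, adjusted p = 4.08e-06) and at 4.79 against 0.27 TPM in day 7 granulocyte cultures. Cnpy3 and Hsp90b1 encode chaperones that fold Toll-like receptors, and both fell in day 5 macrophage cultures (Cnpy3 -0.38 ± 0.10 and Hsp90b1 -0.52 ± 0.11). The median of all tested genes was -0.23 there, and median-of-ratios values of these 2 genes are not given here. Unc93b1, which carries the nucleic acid receptors to endosomes, was higher in day 7 macrophage cultures (194 against 129 TPM, 0.59 ± 0.10, adjusted p = 0.000183). Ly96, which encodes MD-2, the subunit of TLR4 that binds lipopolysaccharide, did not pass at day 3 (-0.26 ± 0.17, adjusted p = 0.215).

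Downstream, adaptors other than Myd88 fell in 2 of 6 genes at day 3 and 4 of 6 in day 5 macrophage cultures and rose in 2 of 6 in day 7 macrophage cultures. At day 3 and in day 7 macrophage cultures these counts lay near the background, where 26.7% of all genes were lower and 3274 of 11953 were higher. Ticam1, the TRIF adaptor of TLR3 and TLR4, was at 6.83 TPM in control and 4.53 TPM in knockout macrophage cultures at day 5 (-0.50 ± 0.13, adjusted p = 0.00338). The median of all tested genes was -0.23 at that stage. Of 18 kinases and ligases, 6 rose and 5 fell at day 3, and none rose and 6 fell in day 5 macrophage cultures. In day 7 macrophage cultures 8 rose and none fell, where 3274 of 11953 genes were higher and 1495 lower. Median-of-ratios scaling turned that split of all genes into 2229 and 2565. The day 3 and day 5 counts also lay near the background, with 3167 of 11953 genes higher and 26.7% lower at day 3 and 37.9% lower in day 5 macrophage cultures, a split that the scaling described above evened out. Irak2 fell with the receptors at day 3 (18.3 against 8.92 TPM, -0.96 ± 0.16, adjusted p = 3.65e-05) and in day 5 granulocyte cultures (23.7 against 10.4 TPM), while Map3k7, the kinase TAK1, rose at day 3 (0.75 ± 0.11). Irf7, the factor through which endosomal receptors induce interferon, was higher in the knockout at day 0 (16.1 against 4.3 TPM) and in all 4 cultures of days 5 and 7, most at day 7 of the macrophage course (31.7 against 3.48 TPM, 2.82 ± 0.18, adjusted p = 9.44e-10).

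The inflammatory targets of the pathway, 16 tested genes, fell in day 5 granulocyte cultures along with the receptors, where 10 were lower and 1 was higher with a median of -0.71 and 22.8% of all genes were lower. In day 5 macrophage cultures, where 7 of the 10 genes of the family fell, they were divided, with 3 higher and 3 lower (median -0.01). Of all 11953 tested genes 611 were higher and 4532 lower in those cultures. At day 3 the targets had 3 higher and 6 lower (median -0.50), where 3167 of 11953 genes were higher and 26.7% lower. Il1a and Il1b, the interleukin-1 genes, had log2 differences of -2.13 ± 0.31 and -1.27 ± 0.20 there. In day 7 macrophage cultures 7 of the 16 were higher and none lower (median 0.52), where 3274 of 11953 tested genes were higher. Among the 7 were Cxcl10 at 8.82 against 1.03 TPM and Tnf at 0.85 ± 0.28 (adjusted p = 0.0217). At day 7 in granulocyte cultures 4 rose and 1 fell, near the background of 3825 higher and 1425 lower among 11905 genes. Ccl5 was at 32.1 against 0.76 TPM and Irg1, which makes itaconate, at 30.2 against 108 TPM. Interferon-stimulated genes, 15 in number and induced by the interferon that some receptors raise, were higher in 10 at day 0 (median 0.74) and in all 15 in day 7 macrophage cultures (median 1.71). Of 11953 tested genes 1568 and 3274 were higher at these 2 stages. At day 3 the interferon-stimulated genes were divided, 4 higher and 2 lower, where 3167 of all genes were higher. Of the 6 IL-1 family receptors, which share Myd88, 4 were lower at day 3 and none higher. In each day 5 culture 2 were lower and 1 higher. Of all tested genes 26.7% were lower at day 3, 37.9% in day 5 macrophage and 22.8% in day 5 granulocyte cultures. At day 7, 2 were higher and 1 lower in macrophage cultures, and 3 higher and none lower in granulocyte cultures. Il1r2 and Il18rap fell at day 3 and in both day 5 cultures. Il1r2 is a decoy without a signalling domain, and it read 161 TPM in control and 58.7 TPM in knockout cells at day 3.

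**Figure D4:**
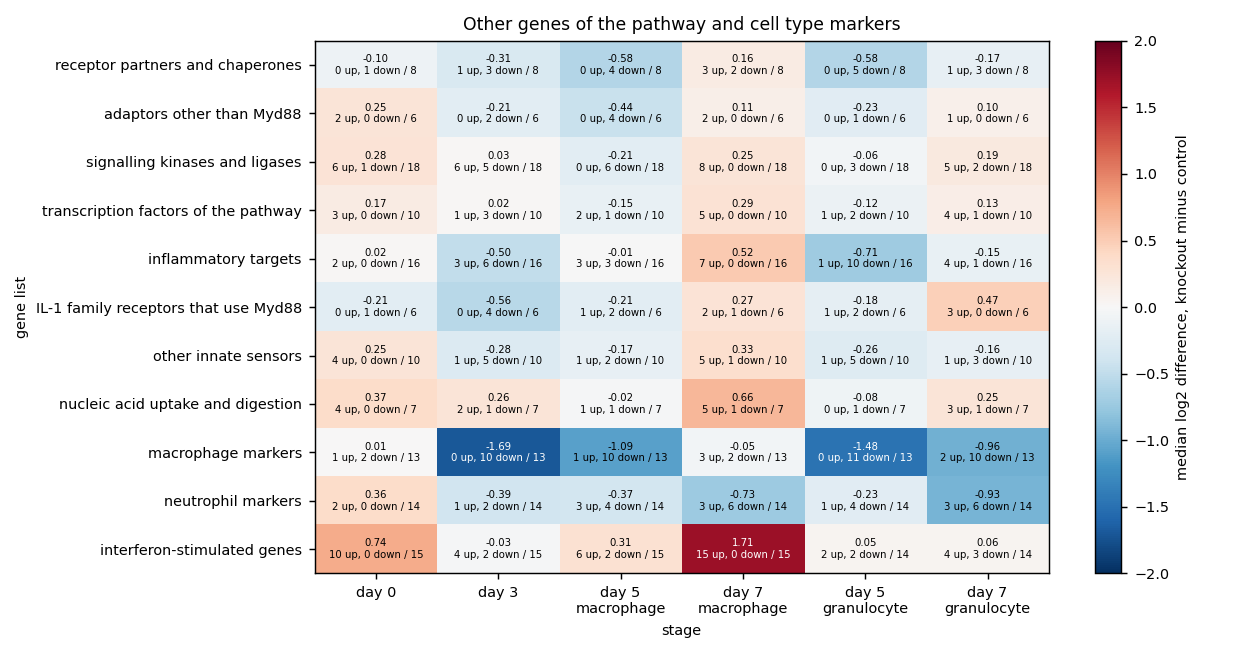
Median knockout minus control difference in log2(TPM + 1) of 11 gene lists (rows) at 6 stages (columns), coloured from -2 to 2, with the number of genes higher (up) and lower (down) of those tested in each cell. Of the 11 lists plotted, macrophage markers have the lowest medians at day 3 (-1.69) and in day 5 granulocyte cultures (-1.48), while megakaryocyte and eosinophil markers, which are not plotted, were lower at day 3; interferon-stimulated genes have the highest median, in day 7 macrophage cultures (1.71).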

How the data were processed

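The authors deposited 2 tables of TPM per gene, 1 for each course, in which the 12 columns of days 0 and 3 were equal. Per the submitters' processing notes, RSEM, DESeq2 1.38.3 and mm10 were used (RSEM version and strand setting: not given in the sources used here). TPM keeps no read depth, so no counting error can be given. Each course was fitted over its 24 libraries with limma 3.58.1 in R 4.3.3 (a trend on mean level) on log2(TPM + 1), for genes at 1 TPM or more in at least 3 libraries, and the day 7 cultures in a fit of 12. Contrasts of days 0 and 3 came from the macrophage fit. P-values were adjusted by Benjamini-Hochberg over all genes tested, and steps were tested on simulated data. Same-numbered libraries were taken as paired where every correlation of their deviations from group means exceeded 0.1: the genotypes at day 5 of the macrophage course (0.183 to 0.301), knockout macrophage cultures of days 3 and 7 (0.158 to 0.189), and the 2 courses at day 7 (0.267 to 0.637 in controls, 0.323 to 0.53 in the knockout). Between the courses at day 7, libraries of different number reached 0.433 in controls and 0.346 in the knockout, so this rule does not settle pairing there. Alternatives were other pseudocounts, filters, scalings and fits, the block, and each library left out. The rule for named genes took all 10 genes throughout, up to 2 genes per list and comparison with the smallest p among those past the threshold, and the 3 genes nearest to each of the 10 among those with a group mean of at least 5 TPM. Ly96 at day 3, Tnf in day 7 macrophage and Tlr8 in day 7 granulocyte cultures fall outside that rule and were chosen after their values were seen. Members and lists were chosen with earlier results of these data known. Of 201 listed symbols 200 were found, 1 under an older name.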

Additional observations from a re-analysis of the deposited data

Results flagged for a closer look

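The genes named here were picked out because the knockout and control changes over the same step differed by the interaction term of the limma fit, and no explanation was weighed. From day 0 to day 3 the log2 terms (knockout minus control, Benjamini-Hochberg adjusted p in brackets) were -0.62 for Tlr1 (0.0337), -1.22 for Tlr2 (0.00189), -1.21 for Tlr4 (0.00116), -0.83 for Tlr6 (0.000659), -1.04 for Tlr7 (0.00424) and -1.36 for Cd14 (0.000135). From day 3 to day 7 of the macrophage course they were 1.19 for Tlr1 (0.00034), 1.07 for Tlr2 (0.00444), 0.35 for Tlr3 (0.0343), 0.99 for Tlr6 (0.000108) and 0.79 for Tlr7 (0.0205). From day 3 to day 7 of the granulocyte course they were 0.85 for Tlr4 (0.0311), 0.95 for Tlr6 (0.000302), -0.63 for Tlr7 (0.0378) and -0.57 for Cd14 (0.0226). Between macrophage and granulocyte cultures at day 7 they were 1.24 for Tlr1 (0.0104), 1.35 for Tlr2 (0.0321), 0.70 for Tlr3 (0.0368) and 1.42 for Tlr7 (0.0337). Terms of different steps share libraries, day 3 above all, so they are not independent of each other.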

How the results depend on the processing

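Of 112 called results of the 10 genes, 86 passed under every alternative run, 26 were lost under at least 1, and 0 changed sign. Counts of genes past the threshold moved by over 1.5 times as follows, and the cause was not tested. Knockout against control at day 0 (4 genes) gave 2 with a pseudocount of 5 TPM, 2 with the groups fitted alone and 1 to 3 with 1 library left out. At day 7 of the macrophage course (4 genes) it gave 1 with a pseudocount of 0.1 TPM, 2 with no filter, 2 with a filter of 5 TPM, 2 with median-of-ratios scaling, 2 with structural RNAs and histones taken out of the total, and 1 to 4 with 1 library left out. The knockout course difference at day 7 (5 genes) gave 3 with a filter of 5 TPM, which removed scarce genes. The genotype difference in that gap (4 genes) gave 2 with no filter and 1 to 5 with 1 library left out. That between day 7 and day 3 gave 3 to 6 in macrophage (5 genes) and 2 to 4 in granulocyte cultures (4 genes) with 1 library left out. Taking structural RNAs and histones out of the total also shifted the split of higher and lower calls over all genes: to 2501 and 1270 for knockout against control at day 0, 2169 and 2062 at day 7 of the macrophage and 2826 and 1863 of the granulocyte course, to 2161 and 6285, 3515 and 4060, and 2408 and 4900 for the 3 knockout steps in time, and to 2334 and 2198 for the genotype difference in the later macrophage step.

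With the replicate number as a block, knockout against control gave 3, 6, 7, 3, 8 and 5 genes past the threshold at day 0, day 3, day 5 and day 7 of the macrophage course, and day 5 and day 7 of the granulocyte course, and at day 7 the courses gave 7 in controls, 7 in the knockout and 5 for their difference. Where the libraries share only a number, Tlr3 at day 0 (adjusted p = 0.0552) and Tlr1 in day 7 macrophage cultures (0.06) did not pass with it, and apart from the 4 genes named at day 7 the block changed no other call. Genes near or under 1 TPM (Tlr3, Tlr9, and Tlr1 before day 7) are limited by the pseudocount and by a depth that TPM values do not show.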
